A study of Homo sapiens with 4 samples.

Results

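The histone genes described here were read by 53 probe sets, the groups of oligonucleotides with which an Affymetrix array reads a transcript, out of 19070 probe sets listed with exactly 1 gene and 22277 in all. They were chosen by name alone: the probe set had a single symbol, and that symbol was of the H1, H2A, H2B, H3 or H4 cluster families or of H2AX, H2AZ or H3-3. The 53 probe sets covered 46 of the 11963 genes read in this way. Of these, 41 genes with 42 probe sets belong to the replication-dependent histones, and 5 genes with 11 probe sets, H1-10, H2AX, H2AZ1, H2AZ2 and H3-3A, were counted as replacement histones. A further 28 probe sets were listed for several genes, at least 1 of them a histone gene, and were not members. H3-3B was listed only on such probe sets.

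RNA came from MDA-MB231, a human breast cancer cell line with mesenchymal features. The cells carried a lentiviral vector with puromycin resistance, in which the U6 promoter drove either a scrambled control shRNA or PIAS1 shRNA2, a hairpin RNA against the SUMO ligase PIAS1, and each shRNA was represented by 1 stable cell line. Both lines were kept for 30 h in one of the media, either DMEM that held 10% FBS or the serum-free stem cell medium SCM, whose additions were EGF, basic FGF, insulin and albumin. Each of the 4 conditions had 1 array. There were no replicates, so differences are given without p-values, and what PIAS1 loss did cannot be told apart from other differences between the lines.

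Histones H2A, H2B, H3 and H4 form the core around which DNA is wrapped, and H1 binds the linker DNA between cores. Most of these proteins come from clustered genes without introns that are transcribed in S phase, when new DNA has to be packed. Their mRNAs end in a stem-loop that is bound by SLBP, and they lack the poly(A) tail of other mRNAs. Some of the clustered genes can also give polyadenylated transcripts through a downstream poly(A) signal, which is known from cells that leave the cell cycle. Replacement histones are made from genes outside the clusters, mostly as polyadenylated mRNAs at all stages of the cycle, and H2AX is a mixed case whose gene gives both kinds of mRNA. The standard labelling for this array starts from the poly(A) tail with an oligo(dT) primer. If it was used here, the signals described are mainly those of polyadenylated transcripts, which was not tested.

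The promoters shown here are those of the 4 clustered genes with at least 2-fold higher signals in SCM in both lines, of H1-2 as a linker histone with a smaller difference, and of H2AX and H2AZ1, which were at least 2-fold lower. They let the promoters of members that differed in opposite directions be compared. Each line gives the 150 bases just before the annotated start, 5′ to 3′, from RefSeq on GRCh38.p14. Capitals mark matches on either strand to the CCAAT box, the TATA box with the letters TATAAA, the octamer ATTTGCAT, the H1 box with the letters AAACACA or the E2F-like TTTNNCGC, and no matches overlapped in these windows.
H2AC6, chr6:26124022-26124171, plus strand: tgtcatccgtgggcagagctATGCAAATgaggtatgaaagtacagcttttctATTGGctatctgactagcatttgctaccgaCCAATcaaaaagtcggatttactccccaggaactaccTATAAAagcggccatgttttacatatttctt
H2BC5, chr6:26157971-26158120, plus strand: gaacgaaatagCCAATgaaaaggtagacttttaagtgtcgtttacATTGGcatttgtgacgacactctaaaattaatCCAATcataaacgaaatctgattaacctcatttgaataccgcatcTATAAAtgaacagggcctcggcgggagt
H1-2, chr6:26056471-26056620, minus strand: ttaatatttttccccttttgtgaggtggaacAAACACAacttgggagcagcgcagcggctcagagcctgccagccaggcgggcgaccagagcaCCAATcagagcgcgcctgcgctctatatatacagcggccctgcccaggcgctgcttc
H2BC21, chr1:149886683-149886832, minus strand: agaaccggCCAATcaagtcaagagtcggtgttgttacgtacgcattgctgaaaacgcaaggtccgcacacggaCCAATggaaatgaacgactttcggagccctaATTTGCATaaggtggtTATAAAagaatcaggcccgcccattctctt
H2BC6, chr6:26183611-26183760, plus strand: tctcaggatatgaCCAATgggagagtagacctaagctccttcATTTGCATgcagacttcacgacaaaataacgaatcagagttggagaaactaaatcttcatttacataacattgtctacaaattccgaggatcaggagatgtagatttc
H2AX, chr11:119095466-119095615, minus strand: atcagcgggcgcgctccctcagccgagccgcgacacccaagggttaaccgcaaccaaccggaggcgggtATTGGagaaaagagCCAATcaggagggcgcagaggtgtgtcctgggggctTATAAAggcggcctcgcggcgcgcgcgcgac
H2AZ1, chr4:99950276-99950425, minus strand: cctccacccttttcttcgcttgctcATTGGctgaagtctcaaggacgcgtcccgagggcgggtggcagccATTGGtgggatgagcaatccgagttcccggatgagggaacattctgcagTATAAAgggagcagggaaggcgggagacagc

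Promoters of 43 of the 46 genes were found in the RefSeq table. In this window the octamer was present in 8 of 11 H2B promoters and in 3 of 8 H2A promoters of the clusters, against 0.996% of 27305 promoters of all genes. The H1 box was present in 5 of 6 replication-dependent H1 promoters, against 2.82% of all. CCAAT was found in 33 of 38 replication-dependent promoters and in 3 of 5 replacement promoters, against 24.2% of all, and TATAAA in 20 of 38 and 3 of 5, against 7.19%. The E2F-like letters were found in 6 of 38 and in none of 5, against 3.73%. These matches describe the letters of the window only.

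The deposited values are signals on a linear scale, and all 4 arrays had been brought to the same trimmed mean. Between 64.7% and 68.4% of all probe sets lay above a background floor of 182, set from genes that breast cells do not use, among them crystallin and digestive enzyme genes, and lower signals were raised to the floor before ratios were taken. For ACTB, the 3′ probe set over the 5′ one, a sign of RNA integrity, gave 0.982 and 0.946 in DMEM and 1.07 and 1.11 in SCM. PIAS1 mRNA was 37.0% of control in both media on its first probe set, and between 23.1%, from a signal under the floor, and 77.9% on the other 2, which checks the labels. All 5 markers of the line (VIM, CD44, CAV1, AXL, MSN) were above the floor on every array. Of the luminal markers PGR, CDH1 and FOXA1 were under it on every array, while GATA3 and, on its brightest probe set, ESR1 were above it. That probe set of ESR1 read 206 to 706 and lay close to the floor in DMEM. By quantitative PCR, the study could not detect ESR1 in control shRNA cells. Of the markers of other cell types, PTPRC, VWF, CDH5 and LUM were under the floor on every array, and PECAM1 (219 to 3297) and COL1A1 (695 to 991) were above it on every array. CD3D (40.6 to 346) and DCN (41.8 to 286) were above it on 3 of the 4 arrays. PECAM1 was higher in SCM.

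As a gauge of measurement scatter, the log2 ratios of different probe sets for the same gene differed with an SD of 0.28 for the knockdown ratio in DMEM, 0.29 in SCM, 0.37 for SCM over DMEM in control shRNA cells and 0.39 in PIAS1 shRNA2 cells, over at least 2742 genes each. This SD holds no variation between cultures. Signals of different probe sets were not read as relative amounts of RNA, since each set of probes has its own brightness. They were only counted against the common floor or ranked to pick or name probe sets. Where a gene had several probe sets above the floor, they are called the first, the second and the third in the order of the numbers shown in the plots.

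Signals of the replication-dependent histones were mostly low. Of their 42 probe sets, 11 were above the floor on all arrays, 14 on some arrays and 17 on none. The 11 covered 10 genes: H1-2 and H1-4 of the linker histones, H2AC6 and H2AC14 of H2A, and H2BC5, H2BC6, H2BC9, H2BC12, H2BC12L and H2BC21 of H2B. Of the 7 H3 and 8 H4 probe sets of the clusters with 1 symbol, 0 were above the floor on all arrays. A probe set shared by 14 H4 genes, which is no member, was above it on all arrays and was lower in SCM. It read 11570 and 9909 in DMEM with control shRNA and PIAS1 shRNA2, and 2925 and 2792 in SCM. The 17 probe sets under the floor everywhere, with signals between 6.40 and 169, were those of H1-1, H1-5, H2AC8, H2AC15, H2AC17, H2BC3, H2BC11, H2BC15, H2BC17, H3C1, H3C3, H3C7, H3C8, H3C11, H4C1, H4C7 and H4C13. By contrast, 10 of the 11 replacement probe sets were above the floor on all arrays, and the exception was the dimmest of 4 for H2AX. Of all 19070 probe sets, 11642 were above it on all arrays, 3317 on some and 4111 on none.

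The length of the annotated gene is a feature that the choice by name did not use. In RefSeq, 37 of the 41 replication-dependent genes span between 386 and 797 bases, the size of a short stem-loop transcript, and 4 span more than 1000 bases. Those 4 were H2BC5 with 13229 bases, H2BC12 with 8566, H3C6 with 3296 and H2BC21 with 2224, and all but H3C6 were above the floor on all arrays. Of the 37 short genes, 7 were above it on all arrays, among them H2AC6 with 519 bases and H1-2 with 731. By place, 38 of the 41 genes lie on chromosome 6, H2BC21 and H2AC25 lie on chromosome 1, and H2BC12L lies on chromosome 21.

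**Figure D1:**
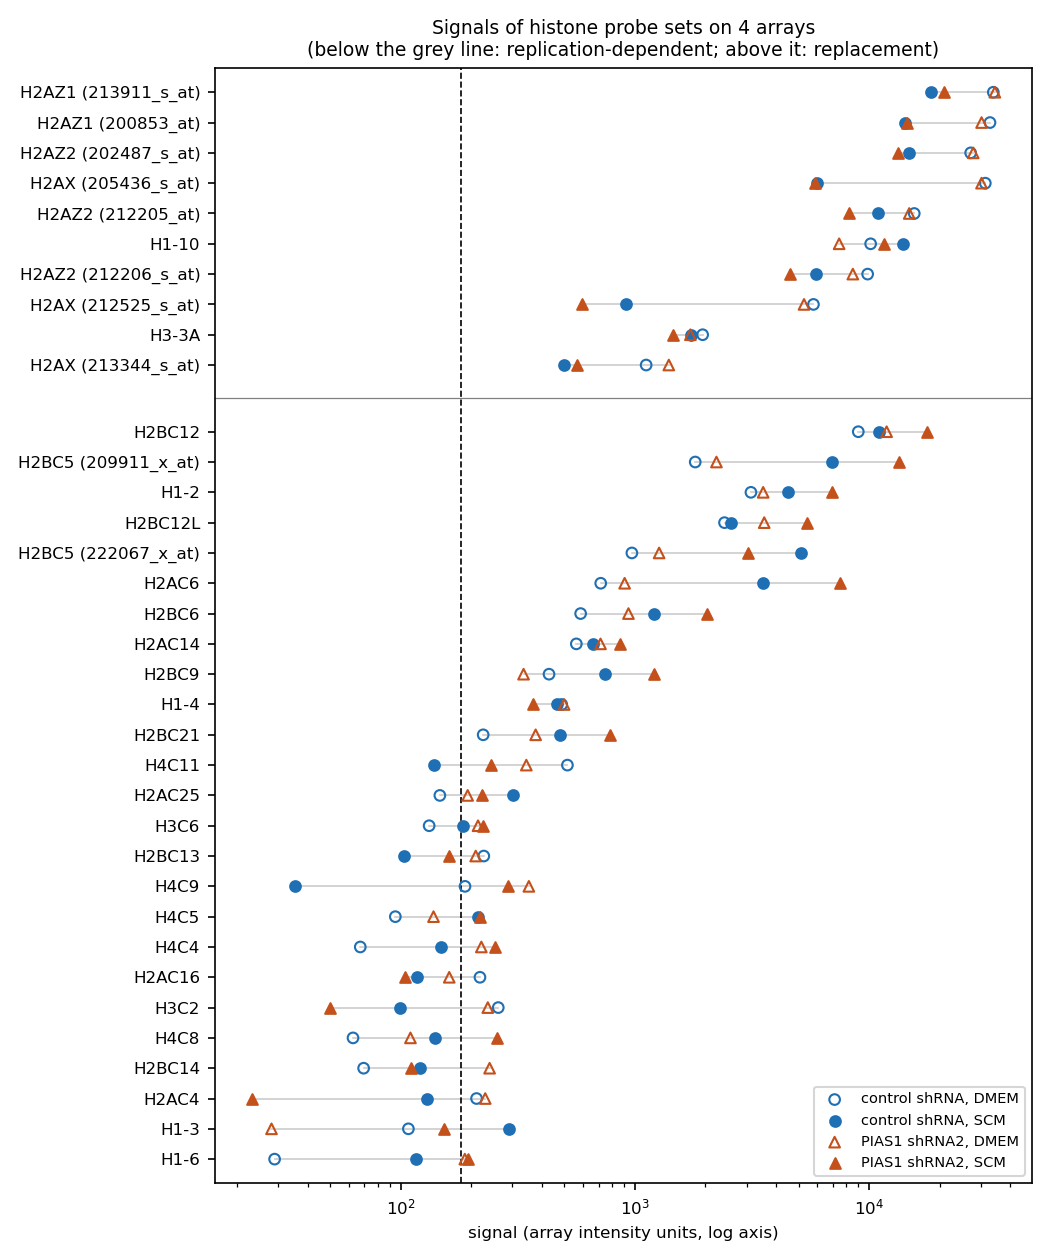
Signal (x axis, array intensity units, log scale) of each histone probe set above the floor on at least 1 array, with 1 array per condition. Symbols are circles for control shRNA and triangles for PIAS1 shRNA2, with DMEM open and SCM filled, and the dashed line is the floor of 182. For H2AC6 and H2BC5 both filled symbols lie to the right of both open symbols, and for H2AX they lie to the left.

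The first question was how the histone genes differed between serum-containing DMEM and serum-free SCM. In both lines, H2AC6, H2BC5, H2BC6 and H2BC21 had at least 2-fold higher signals in SCM, while H2AX and H2AZ1 had at least 2-fold lower ones. By family, 1 of 8 replication-dependent H2A probe sets was at least 2-fold higher in each line. Of the 13 replication-dependent H2B probe sets, 4 were in control shRNA cells and 5 in PIAS1 shRNA2 cells. Of the 6 H1, 7 H3 and 8 H4 probe sets of this class, 0 were in either line. Among all probe sets, 8.16% and 7.99% were. H2AC6, a clustered H2A gene, read 715 and 904 in DMEM with control shRNA and PIAS1 shRNA2, and 3540 and 7522 in SCM. Both SCM signals of H2AC6 were far above both DMEM signals, by 4.95-fold in control shRNA cells and 8.32-fold in PIAS1 shRNA2 cells.

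H2BC5, an H2B gene with a long annotated form, has 2 probe sets. On the first H2BC5 read 1810 and 2230 in DMEM with control shRNA and PIAS1 shRNA2, and 6934 and 13390 in SCM. On the second it read 971 and 1269 in DMEM and 5129 and 3037 in SCM. Both probe sets of H2BC5 were higher in SCM in both lines, by 3.83-fold and 6.00-fold on the first and by 5.28-fold and 2.39-fold on the second, so they gave the direction alike and the order of the lines differently.

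H2BC21, the H2B gene of the chromosome 1 cluster, read 225 and 377 in DMEM with control shRNA and PIAS1 shRNA2, and 477 and 784 in SCM, which was 2.12-fold and 2.08-fold higher. Its lowest signal was close to the floor, and with arrays scaled to a common median or by quantiles the ratio in control shRNA cells was under 2-fold, for H2BC21 and for H2BC6 alike. Raising the floor to the array median gave H2BC21 a log2 ratio of 0.00 in control shRNA cells and 0.37 in PIAS1 shRNA2 cells, and that of H2BC6 in control shRNA cells was 0.99. With a floor of 360, the 95th percentile of the same genes, that of H2BC21 in control shRNA cells was 0.40. H2BC6 read 586 and 939 in DMEM and 1206 and 2030 in SCM, 2.06-fold and 2.16-fold higher. H2BC9 read 430 and 335 in DMEM and 743 and 1207 in SCM, which was 1.73-fold higher in control shRNA cells and 3.61-fold in PIAS1 shRNA2 cells, though just under 2-fold there with the floor at the array median. Each of these 3 H2B genes had both SCM signals above both DMEM signals. The share of all probe sets with such an order is not given.

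Other replication-dependent genes differed less. H1-2, a linker histone of S phase that is also found in resting cells, read 3131 and 3531 in DMEM with control shRNA and PIAS1 shRNA2, and 4503 and 6927 in SCM, with log2 ratios of 0.52 and 0.97 between the media. H2BC12 read 8998 and 11890 in DMEM and 11020 and 17660 in SCM, with log2 ratios of 0.29 and 0.57, so that the groups overlapped. H2BC12L read 2414 and 3568 in DMEM and 2572 and 5447 in SCM, with 0.09 and 0.61. H2AC14 had 0.23 and 0.27, and H1-4 had -0.07 and -0.45. Thus H1-4 was the only replication-dependent gene above the floor on all arrays without a higher signal in SCM in either line.

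Over all 42 replication-dependent probe sets, 5 were at least 2-fold higher in SCM in control shRNA cells and 6 in PIAS1 shRNA2 cells, or 11.9% and 14.3%. The same held for 8.16% and 7.99% of all 19070 probe sets. The 5 were those of H2AC6, H2BC5, H2BC6 and H2BC21, all 5 were also higher in PIAS1 shRNA2 cells, and the one that was higher there alone was that of H2BC9. In both lines together, 5.25% of all probe sets were at least 2-fold higher. In the other direction, 1 replication-dependent probe set, of H4C11, was at least 2-fold lower in control shRNA cells and none in PIAS1 shRNA2 cells, where 7.61% and 7.77% of all probe sets were. H4C11 read 515 in DMEM and 139 in SCM with control shRNA, at least 2.84-fold lower, against 344 and 243 in PIAS1 shRNA2 cells, where the log2 ratio was -0.50. Under a floor of 605, which is the array median, the ratio of H4C11 was 0.00. The median of the 42 was 0.00 in both lines, like that of all probe sets, since 17 of them lay under the floor on every array. All probe sets at least 2-fold higher carry the suffix _s_at or _x_at, which the array's maker gives to probe sets that can also bind related transcripts, so their signals may include RNA of neighbours in the family. Without such probe sets 0 members were at least 2-fold higher in SCM. With arrays scaled to a common median, 3 of the 53 members were higher and 5 lower in control shRNA cells, against 5 and 5 here. By more than the SD between probe sets of a gene, 9 of the 42 were higher in control shRNA cells and 10 in PIAS1 shRNA2 cells. These shares, 21.4% and 23.8%, stood beside 23.2% and 21.9% of all probe sets. By the same limit 2 and 3 were lower, where 21.4% and 22.5% of all probe sets were. However, 17 of the 42 lay under the floor on every array, against 4111 of all 19070 probe sets, and have a ratio of 0.00 by construction. The floor thus lowers the shares of the 42 in both directions more than those of all probe sets.

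The other 13 replication-dependent probe sets that were above the floor on some arrays were not at least 2-fold different between the media once signals were raised to the floor. Most of their ratios are bounds, since 1 or both signals lay under the floor, and the true differences may be larger. They were those of H1-3, H1-6, H2AC4, H2AC16, H2AC25, H2BC13, H2BC14, H3C2, H3C6, H4C4, H4C5, H4C8 and H4C9, and their highest signal was 353, of H4C9. H2AC25 had a log2 ratio of at least 0.74 in control shRNA cells and of 0.20 in PIAS1 shRNA2 cells. With signals this close to the floor, differences of these genes were not detectable beyond background.

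H2AX, the H2A variant that is phosphorylated at DNA breaks, had lower signals in SCM on each of its 3 probe sets above the floor. All 3 carry the suffix _s_at, so their signals may also include RNA of related genes. On the first, H2AX read 31380 and 30230 in DMEM with control shRNA and PIAS1 shRNA2, and 5968 and 5879 in SCM, which was 5.26-fold and 5.14-fold lower. On the second it read 5789 and 5277 in DMEM and 914 and 595 in SCM, 6.33-fold and 8.88-fold lower. On the third it read 1117 and 1396 in DMEM and 498 and 568 in SCM, 2.24-fold and 2.46-fold lower. The groups were separate on all 3, although the size of the difference was not the same. How many of all probe sets had separate groups is not given. On the third, the ratio in control shRNA cells was -0.88 on the log2 scale with the floor at the array median, so under 2-fold.

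H2AZ1 and H2AZ2 encode the H2A.Z variants found at promoters and were lower in SCM by less. On its first probe set, H2AZ1 read 32860 and 30250 in DMEM with control shRNA and PIAS1 shRNA2, and 14290 and 14490 in SCM, 2.30-fold and 2.09-fold lower. On the second it read 33950 and 34470 in DMEM and 18430 and 20960 in SCM, 1.84-fold and 1.64-fold lower. H2AZ2 had log2 ratios of -0.88 and -1.07 on its brightest probe set, -0.51 and -0.85 on another and -0.73 and -0.89 on the last. On every probe set of both genes the SCM signals were under the DMEM signals, an order whose share over all probe sets is not given.

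H3-3A and H1-10 stood apart from the other replacement histones. H3-3A is a gene of the replacement H3, which is laid down in and outside S phase. It read 1947 and 1726 in DMEM with control shRNA and PIAS1 shRNA2, and 1737 and 1459 in SCM. The log2 ratios were -0.17 and -0.24. These were smaller than the scatter between probe sets. H1-10, a linker histone gene on chromosome 3, read 10160 and 7454 in DMEM and 13980 and 11540 in SCM, and was higher in SCM with 0.46 and 0.63. It was the only replacement histone with higher signals in SCM.

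Over the 11 replacement probe sets the median log2 ratio of SCM over DMEM was -0.88 in control shRNA cells and -0.89 in PIAS1 shRNA2 cells, against 0.00 over all probe sets. At least 2-fold lower were 4 of 11 in control shRNA cells and 5 of 11 in PIAS1 shRNA2 cells, with 4 in both, where 5.2% of all probe sets were lower in both lines. These 4 came from H2AX and H2AZ1 only, and probe sets of 1 gene are not independent. None was at least 2-fold higher. By more than the SD between probe sets, 8 of 11 were lower in each line, or 72.7%, against 21.4% of all probe sets in control shRNA cells and 22.5% in PIAS1 shRNA2 cells, and 1 was higher in each line, that of H1-10, against 23.2% and 21.9%.

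**Figure D2:**
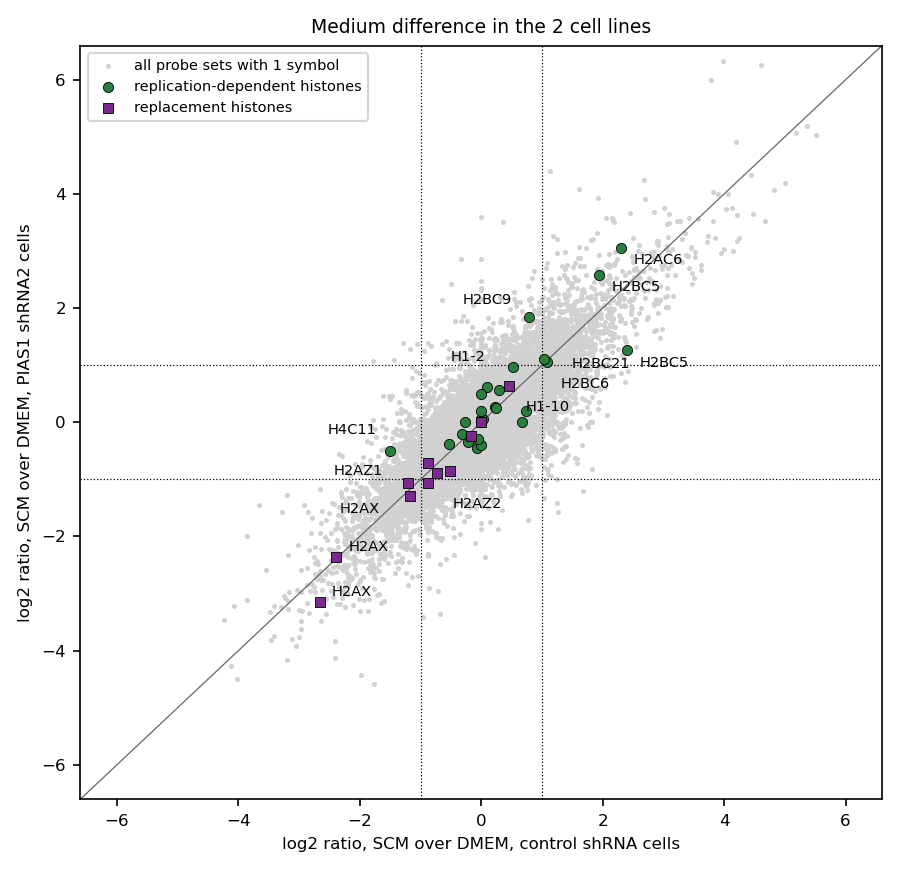
Log2 ratio of SCM over DMEM in control shRNA cells (x axis) and in PIAS1 shRNA2 cells (y axis) for 19070 probe sets in grey, with replication-dependent histones as green circles and replacement histones as purple squares, each from 1 array per condition, where signals under the floor were set to it. The dotted lines stand for 2-fold and the solid line equal ratios. H2AC6 and H2BC5 lie at the upper right and 2 probe sets of H2AX at the lower left.

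Genes of DNA replication were mostly lower in SCM. Of 39 measured S-phase genes, 35 were at least 2-fold lower in SCM in control shRNA cells and 33 in PIAS1 shRNA2 cells, with medians of -2.09 and -2.35, and none was at least 2-fold higher. Of all probe sets 7.61% and 7.77% were lower to that extent. Among them, CCNA2, which encodes cyclin A2, had -1.85 and -3.09, RRM2, which encodes a subunit of ribonucleotide reductase, had -2.00 and -3.31, the helicase subunit gene MCM5 had -2.45 and -3.06, and GINS1, of the same helicase, had -2.83 and -3.33. In RNA of whole cultures, fewer cells in S phase and less RNA in each cell cannot be told apart. The part of S phase in the histone differences was not tested.

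Some of the genes that act on histone mRNA and histone proteins were at least 2-fold lower in SCM as well. Of 25 measured genes of histone mRNA processing, control and decay, 11 were at least 2-fold lower in control shRNA cells and 7 in PIAS1 shRNA2 cells. Only 1 was higher, in control shRNA cells, and the medians were -0.78 and -0.73. Among all probe sets, 7.61% and 7.77% were lower to that extent and 8.16% and 7.99% higher. All 25 genes were above the floor on all arrays, as were 11642 of all 19070 probe sets. SLBP, which binds the stem-loop, read 16200 and 15460 in DMEM with control shRNA and PIAS1 shRNA2, and 6971 and 8122 in SCM, with log2 ratios of -1.22 and -0.93. NCBP1, of the cap-binding complex, had -1.75 and -1.03, SNRPF, an Sm protein gene, had -1.56 and -1.03, CSTF2, a cleavage factor gene, had -1.24 and -0.86, and CCNE1, which encodes cyclin E1, had -1.73 and -1.59. NPAT, the coactivator of the clustered genes, had -0.26 and -0.56. The list shares SLBP and both cyclin E genes with the S-phase list.

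Of 39 measured histone chaperone genes, 14 were at least 2-fold lower in SCM in control shRNA cells and 16 in PIAS1 shRNA2 cells, 13 of them in both, and none was higher. Among all probe sets, 7.61% and 7.77% were lower to that extent, and 5.2% in both lines. Above the floor on all arrays were 36 of the 39 genes, against 11642 of all 19070 probe sets. ASF1B, a chaperone of new H3 and H4 in S phase, had -2.25 and -2.79, and CHAF1A, of the assembly factor CAF-1, had -1.84 and -2.44. HIRA, which deposits the replacement H3 also outside S phase, had -1.08 and -0.47, and HJURP, the chaperone of CENPA, had -0.87 and -2.31. The median of the chaperones was -0.69 and -0.59. Of 6 measured histone genes outside the families described here, the centromeric H3 gene CENPA had -1.57 and -2.33, MACROH2A1 had -0.67 and -0.48, and MACROH2A2 was near or under the floor, as were the other 3.

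**Figure D3:**
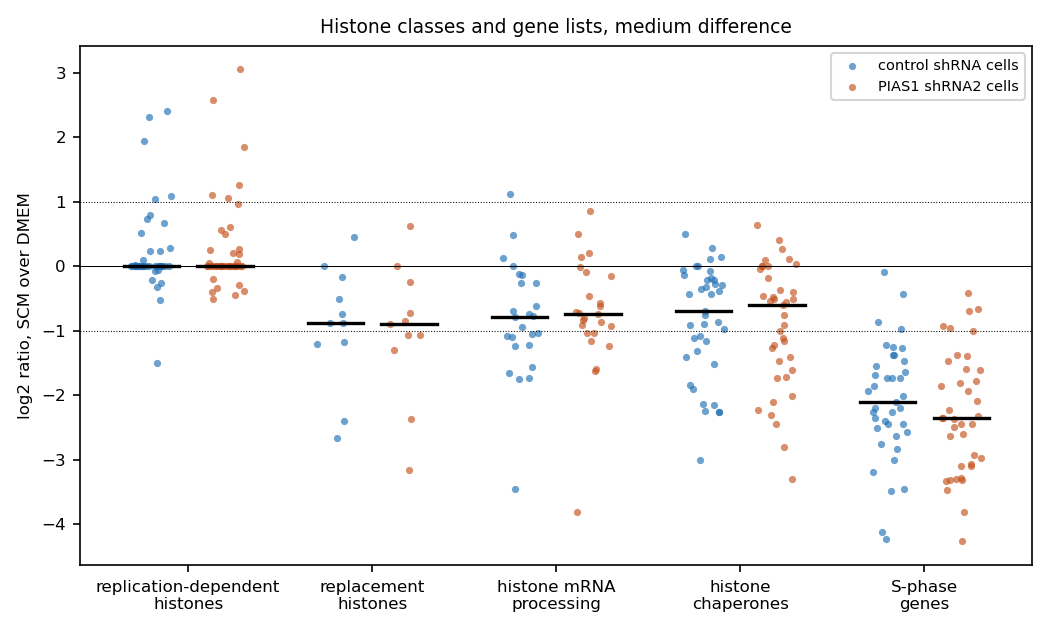
Log2 ratio of SCM over DMEM (y axis) for histone probe sets of both classes and for genes of 3 lists (x axis), blue in control shRNA cells and orange in PIAS1 shRNA2 cells, with 1 array per condition. Points are probe sets for the histones and genes for the lists, bars are medians and dotted lines mark 2-fold. The medians of the S-phase genes are -2.09 and -2.35, and those of the replication-dependent histones are 0.00.

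The second question was how loss of PIAS1 bore on histone genes in each medium. In SCM, H2AC6 and H2BC12L were at least 2-fold higher with PIAS1 shRNA2. The median log2 ratio was 0.00 both over the 8 H2A and over the 13 H2B probe sets of the replication-dependent class. H2AC6 was 2.13-fold higher with PIAS1 shRNA2 than with control shRNA (7522 against 3540) and H2BC12L 2.12-fold higher (5447 against 2572). These 2 of 53 members, 3.77%, were at least 2-fold higher, where 1.52% of all probe sets were, and none was at least 2-fold lower, where 1.24% were. Both are read by probe sets that can bind related transcripts.

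Below 2-fold, H2BC6 had a log2 ratio of 0.75 in SCM, H2BC21 0.72, H2BC9 0.70, H2BC12 0.68 and H1-2 0.62. The probe sets of H2BC5 disagreed, with 0.95 on the first and -0.76 on the second, so no direction can be given for H2BC5. H2AC14 had 0.38 and H1-4 -0.34. Over all 42 replication-dependent probe sets, 13 were higher in SCM by more than the SD between probe sets of a gene, or 31.0% against 15.1% of all probe sets, and 4 were lower, or 9.52% against 15.5%. Among the 13 were those of H4C4, H4C8, H4C9 and H4C11, whose control signals in SCM lay under the floor. Among the lower ones, the PIAS1 shRNA2 signal of H1-3 lay under it. Most of the 13 carry the suffix _s_at or _x_at and can bind related transcripts, so they are not separate readings.

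In DMEM no member was at least 2-fold different between PIAS1 shRNA2 and control shRNA, where 1.17% of all probe sets were higher and 0.724% lower. Thus none was at least 2-fold different in both media, as were 0.231% of all probe sets on the higher side and 0.115% on the lower. The log2 ratio in DMEM was 0.74 for H2BC21, 0.68 for H2BC6, 0.56 for H2BC12L, 0.40 for H2BC12, 0.34 for H2AC6 and 0.17 for H1-2. The highest, 0.91 for H4C9, rests on a control signal of 188 at the edge of the floor. By more than the SD between probe sets, 11 of 42 replication-dependent probe sets were higher in DMEM, or 26.2% against 14.6% of all, and 2 were lower, or 4.76% against 11.7%. Among the 11, those of H2BC14 and H4C4 had control signals under the floor, and most of the 11 can bind related transcripts. The probe sets of H2BC5 both were higher in DMEM, with 0.30 and 0.39.

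H2BC9 went in opposite directions in the media. In DMEM it read 430 in control cells and 335 in PIAS1 shRNA2 cells, and in SCM 743 and 1207, with log2 ratios of -0.36 and 0.70. H2AC6 differed more in SCM than in DMEM by 0.75 on the log2 scale, and H2BC12L by 0.52. With 1 array per condition these differences between the media were not tested, and each array enters both a medium comparison and a knockdown comparison, so the values of the 2 kinds of comparison are not independent of each other.

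Replacement histones had no difference of 2-fold with PIAS1 shRNA2. By more than the SD between probe sets, 3 of 11 were lower in SCM, or 27.3% against 15.5% of all probe sets, and 0 were higher, against 15.1%. In DMEM 1 was lower and 1 higher, against 11.7% and 14.6%. Their median log2 ratio was -0.16 in SCM and -0.07 in DMEM. H2AX had -0.02 in SCM on the first probe set, -0.62 on the second and 0.19 on the third, and H2AZ1 had 0.02 and 0.19. H2AZ2 had -0.16, -0.41 and -0.37 in SCM, H3-3A had -0.25 and H1-10 had -0.28. H1-10 was lower in DMEM as well, with -0.45, from 10160 in control cells against 7454 in PIAS1 shRNA2 cells.

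**Figure D4:**
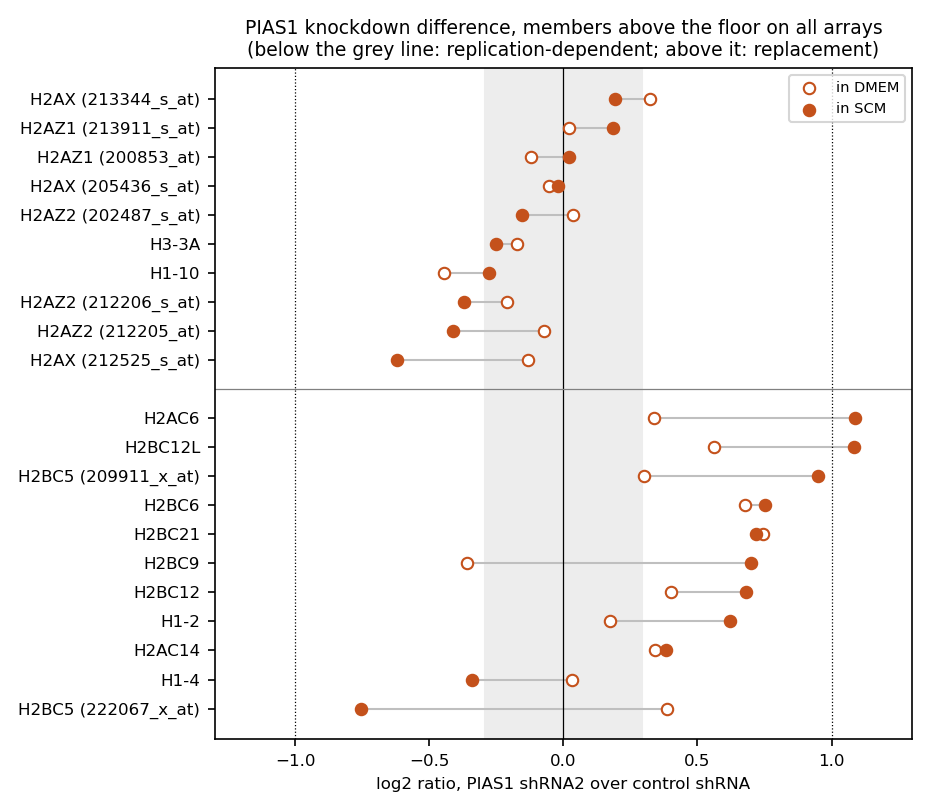
Knockdown ratio, PIAS1 shRNA2 against control shRNA on the log2 scale (x axis), for each histone probe set above the floor on all arrays, open in DMEM and filled in SCM, with 1 array per condition. The grey band is the SD of 0.29 between probe sets of a gene in SCM and dotted lines mark 2-fold. The filled points of H2AC6 and H2BC12L lie beyond 2-fold, and those of the 2 probe sets of H2BC5 lie on opposite sides.

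S-phase genes stood beside these values as follows. With PIAS1 shRNA2 in SCM, 2 of 39 were at least 2-fold lower, CCNA2 with -1.39 and RRM2 with -1.23, and none was higher, with a median of -0.23, while in DMEM the median was -0.06. MCM5 had -0.78 and GINS1 -0.67 in SCM. Of the chaperone genes 1 was at least 2-fold lower in SCM, HJURP with -1.47, and of the mRNA processing genes 1 was higher, SNRPF with 1.16. Among all probe sets, 1.24% were at least 2-fold lower in SCM and 1.52% higher. In SCM, CENPA had -0.62, ASF1B -0.72, CHAF1A -0.61 and HIRA 0.72. Their part in the histone differences was not tested.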

How the data were processed

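RNA of 4 conditions was hybridised to Affymetrix human genome arrays, 1 for each. The authors deposited signal intensities on a linear scale, for which the submitters' processing notes name MAS5, and the sources used here give neither its version nor its settings. Leaving out 2% at each end, every array had a mean of 2501. Signals of array probes depend on their own brightness, and the number of arrays limits the precision.

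Names came from GEO's gene table of the platform, with 19070 listed for 1 gene, 1043 for several and 2164 unnamed here. The members' 46 Entrez identifiers all matched RefSeq (GRCh38.p14). For the floor, 83 probe sets of 56 genes not used in breast were taken and their 75th percentile was computed per array, and the highest result served all 4 arrays. Ratios were log2 of the floored signals, with 2-fold as the limit for counts, and have no test. A ratio with its dimmer signal under the floor is a bound. A gene of the lists was read by its brightest probe set. Named were all replacement histones, members at least 2-fold different in any comparison, the 10 replication-dependent members with the highest mean log2 signal, and up to 4 genes of each list by their ratio in SCM. SLBP, NPAT and the members named to account for all probe sets stand outside this rule and were chosen after their values were seen. The members and lists were chosen with earlier results of these data known. The steps were tested on simulated data. Python 3.11.15, NumPy 2.4.6, pandas 2.3.3 and matplotlib 3.10.9 were used. Alternatives were other floors, other scalings and other choices of probe sets.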

Additional observations from a re-analysis of the deposited data

Results flagged for a closer look

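In 2 probe sets above the floor on all arrays, the knockdown ratio went in opposite directions in the media by more than the scatter between probe sets of a gene, and the difference was not tested. On the log2 scale the SCM value exceeded the DMEM value by 1.06 for H2BC9, and the SCM minus DMEM difference was -1.14 for the second probe set of H2BC5, with 0.39 in DMEM and -0.76 in SCM. The other probe set of H2BC5 had the same direction in both media. H4C11, under the floor on 1 array, also went in opposite directions, with -0.58 in DMEM and at least 0.42 in SCM.

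Histone probe sets listed for several genes were not members. Of these 28, 6 were at least 2-fold different between the media in both lines. Among all probe sets with 1 gene, 5.25% were higher and 5.2% lower in both lines. Probe sets that share the same genes are not separate readings. In control shRNA cells the log2 ratio of SCM over DMEM was 2.13 and 1.44 on 2 probe sets of H2AC18 and H2AC19. On 3 probe sets shared by H2BC4, H2BC6, H2BC7, H2BC8 and H2BC10 it was 1.02, 1.03 and at least 1.45. In PIAS1 shRNA2 cells the H2AC18 and H2AC19 probe sets had 2.89 and 1.77, and the last of the H2B probe sets had at least 2.14. Both DMEM signals of that last probe set lay under the floor. A probe set shared by 14 H4 genes was lower in SCM, with -1.98 in control shRNA cells and -1.83 in PIAS1 shRNA2 cells.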

How the results depend on the processing

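No paired analysis was possible because each condition has 1 array, so that the groups compared share only 1 replicate number. With no floor, the members at least 2-fold higher and lower numbered 7 and 10 with PIAS1 shRNA2 in DMEM, 5 and 4 in SCM, 15 and 13 for SCM over DMEM in control shRNA cells and 12 and 12 in PIAS1 shRNA2 cells, and the median of the replication-dependent histones was 0.42 for SCM over DMEM in control shRNA cells. For SCM over DMEM in control shRNA cells, 3 members were higher with arrays scaled to a common median and 3 with quantile normalization, and 3 were higher and 3 lower with a floor of 605, the array median. Without _x_at and _s_at probe sets, 0 members were higher with PIAS1 shRNA2 in SCM, and between the media 0 were higher and 1 lower in control shRNA cells and 0 and 1 in PIAS1 shRNA2 cells. With 1 probe set per gene, 2 were lower in each line. The counts with no floor include ratios of background signals, since 18 of the 53 members lay under the floor on every array. Shares of all probe sets under these other settings are not given, so the counts show only how far the results move. The cause was not tested where the construction does not show it. Counting H2AX with the replication-dependent histones, an alternative chosen after the data were seen, moved no class median by more than the scatter between probe sets. H2AC6, both probe sets of H2BC5, H2AX on 2 of 3 probe sets, and H2AZ1 on its first probe set, stayed at least 2-fold different between the media under every floor, scaling and choice of probe sets that kept them. Signals near the floor limit what can be said of most clustered genes.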
